A study of Mus musculus with 36 samples.

Results

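The comparison described here set the blood of mice exposed to a mixed field in which neutrons gave 15% of the dose against the blood of sham-irradiated mice. Its members were chosen by array title and comprised 12 of the 36 arrays of the series, the 6 mice of the 15% mixed field and the 6 controls, out of 6 exposure groups. The study asked how x-rays, neutrons and mixtures of both, such as those released by an improvised nuclear device, change gene expression in mouse blood at day 7. The mice were male C57BL/6J animals aged 8 to 10 weeks, and 1 mouse was hybridised per array. The treated mice received a total of 3 Gy, of which 0.45 Gy were neutrons and the rest photons, mostly x-rays, and the controls carried the label of no treatment. All mice of both groups had their blood drawn by cardiac puncture at day 7, and the RNA came from whole blood, so that every nucleated cell, the platelets and the young red cells contributed to each array. The labels call the samples of a group independent experiments but do not say that the mice were irradiated on separate days. The p-values below measure the spread between the arrays of a group, 1 mouse each. Without a block for them, slide and scan session are part of that spread.

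Ionising radiation kills dividing cells of the bone marrow and resting lymphocytes, and B cells are among the most sensitive cells of the blood. A week after a dose that the animal survives, the blood is short of lymphocytes while the marrow and, in mice, the spleen begin to release new cells, among them reticulocytes, the young red cells that still hold RNA. Neutrons deposit their energy along short, dense tracks, and the clustered DNA damage that follows is harder to repair than the sparser damage left by x-rays.

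Levels are given throughout as log2 intensity minus the median of the same array, so a value of 1 lies at 2 times the median probe, and differences are log2 differences of the 15% mean minus the control mean. Of 39429 probes, 21484 were detected above background over the series and 17954 of these also varied between arrays by a set fold, which left 15077 genes, each with its brightest probe. A gene was called differentially expressed when limma gave it a p below 0.001 and also an adjusted p (Benjamini-Hochberg) below 0.05, and among the genes called the highest adjusted p was 0.00342. Probes of different genes bind with different strength, so levels were not set against each other between genes.

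Scanning was not balanced between the groups. Control replicates 1, 2, 4, 5 and 6 were scanned in the session of 5 of the 6 x-ray arrays and 15% replicates 1, 2, 4, 5 and 6 in a later session, and control replicate 3 and 15% replicate 3 shared 1 slide and 1 session with 1 x-ray and 1 5% array. The groups also differed in where probes lay relative to the array median. At 15% the spike-in probes lay at 8.22 ± 0.59 (SD, n = 6) above the array median against 7.00 ± 0.24 (SD, n = 6), with an exact two-sided permutation p of 0.00216, the smallest that 6 arrays against 6 can give, while the 75th percentile lay closer to the median, at 3.28 ± 0.14 (SD, n = 6) against 3.47 ± 0.14 (SD, n = 6; exact two-sided permutation p = 0.0368). Fewer probes were well above background at 15%, 15569 to 21184 per array against 19492 to 20724 in the controls (exact permutation p = 0.039). Gene groups are therefore given with their calls from a model of 24 arrays (controls, x-rays, 5% and 15% mixed field) with the scan session as a block, and many also with the difference between the control and the 15% array that shared a session. In that model only the arrays of the shared session link the controls to the 15% field. Its power is therefore low, and a call lost in it does not tell session from exposure. The 15% array of the shared pair also read higher in liver genes than its control, as given below. Replicate 3 of the 15% group stood apart from the other 5 in many genes named below, and its values are given where they did.

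A 15% neutron mixed field was followed by a change in the level of 4398 of the 15077 genes at day 7, which is 29.2% of the genes tested. Of these, 1898 (12.6%) were upregulated and 2500 (16.6%) were downregulated, and the median size of a called difference was 1.65. The median difference over all genes tested was -0.02. In 1645 genes (10.9%) every 15% array lay above every control array, and in 2449 genes (16.2%) every 15% array lay below. Between the 2 arrays that shared a session, 1770 of the 1898 upregulated genes were higher at 15%, with a median of 1.06 against 1.84 over all 12 arrays, and 2458 of the 2500 downregulated genes were lower, with a median of -1.07 against -1.54. With the scan session as a block over 24 arrays, 671 genes (4.45%) were called, 182 higher and 489 lower. Levels varied more over the 15% arrays than over the controls: the SD was larger at 15% for 85.6% of the genes, with a median SD of 0.64 against 0.35. The 15% arrays also varied more in the number of probes well above background, with an SD of 1991 against 533. With 1 mouse per array, variation between mice and between arrays cannot be told apart.

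**Figure D1:**
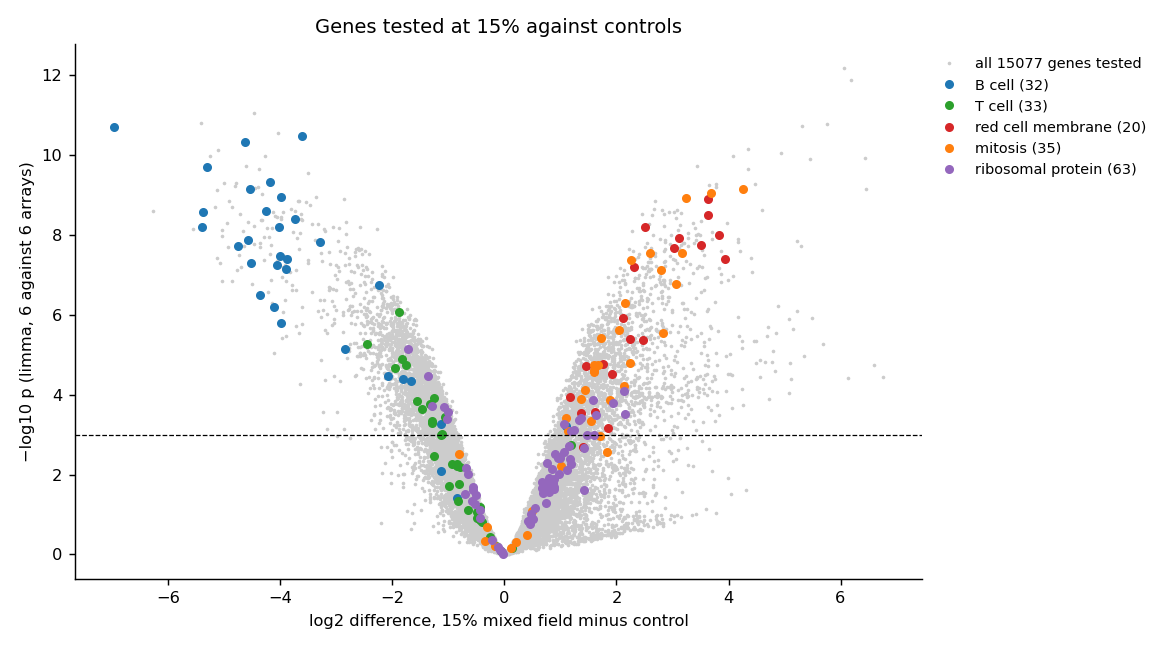
Log2 difference of the 15% mixed field minus controls (x axis) against the −log10 p-value of limma (y axis) for the 15077 genes tested, with a dashed line at the threshold for calling. Of the genes above the line, 1898 lay to the right and 2500 to the left, and the B cell genes lay at the far left.

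Promoter sequence is shown for genes near the head of groups known for a shared DNA element. These are the metal response element for metallothioneins, the cell cycle homology region for mitosis genes and the GATA site for red cell genes. Only promoters that held a match are printed, and those of Fcer2a, Cd72 and Urod, which held none, were left out. The sequences are those of RefSeq on GRCm38.p6, 250 bases up to the start site, 5′ to 3′ on the strand of the gene, and capitals mark each match to the searched letters on either strand. Mt2 lies at chr8:94172368-94172617 on the plus strand and Mt1 at chr8:94178839-94179088 on the plus strand, both searched for TGCNCNC. Mki67 lies at chr7:135716380-135716629 on the minus strand and Ccnb2 at chr9:70421555-70421804 on the minus strand, both searched for TTTGAA and TTCGAA. Rhd lies at chr4:134864286-134864535 on the plus strand and was searched for AGATAA and TGATAA.
Mt2: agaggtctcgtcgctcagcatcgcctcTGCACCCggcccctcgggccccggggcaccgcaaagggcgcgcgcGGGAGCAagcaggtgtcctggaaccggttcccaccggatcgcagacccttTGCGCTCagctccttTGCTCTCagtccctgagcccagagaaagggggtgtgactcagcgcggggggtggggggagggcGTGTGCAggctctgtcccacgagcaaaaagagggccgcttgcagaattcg
Mt1: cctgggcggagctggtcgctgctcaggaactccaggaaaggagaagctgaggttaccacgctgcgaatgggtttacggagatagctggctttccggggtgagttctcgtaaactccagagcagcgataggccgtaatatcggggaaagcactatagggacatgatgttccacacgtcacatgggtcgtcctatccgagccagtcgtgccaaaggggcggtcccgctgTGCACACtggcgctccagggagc
Mki67: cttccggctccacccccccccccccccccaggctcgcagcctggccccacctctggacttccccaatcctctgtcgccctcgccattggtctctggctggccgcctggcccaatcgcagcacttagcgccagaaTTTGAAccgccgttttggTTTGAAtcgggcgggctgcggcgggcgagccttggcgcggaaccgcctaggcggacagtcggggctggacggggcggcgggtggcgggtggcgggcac
Ccnb2: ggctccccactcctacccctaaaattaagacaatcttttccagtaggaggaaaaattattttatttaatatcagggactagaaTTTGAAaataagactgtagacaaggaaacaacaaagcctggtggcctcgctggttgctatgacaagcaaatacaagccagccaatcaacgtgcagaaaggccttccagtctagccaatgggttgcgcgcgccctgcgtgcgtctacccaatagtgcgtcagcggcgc
Rhd: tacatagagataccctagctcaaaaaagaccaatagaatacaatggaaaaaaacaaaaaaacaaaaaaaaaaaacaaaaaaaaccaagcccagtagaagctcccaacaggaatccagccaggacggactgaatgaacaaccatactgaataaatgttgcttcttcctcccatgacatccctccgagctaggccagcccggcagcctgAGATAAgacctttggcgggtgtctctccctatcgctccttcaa
Mt2 held 5 matches and Mt1 held 1, but TGCNCNC is a short pattern that was present in 44.4% of the 32851 promoters of the table. The cell cycle letters were present in 8 of the 20 upregulated mitosis genes with a promoter in the table, which is 40% against 17.1% of all promoters. The GATA letters were found for 7 of 20 upregulated heme and red cell membrane genes, 35% against 16.6% of all promoters. TGCAAAT, the core of the octamer bound by B cell factors, was present in 4 of 23 downregulated B cell genes, 17.4% against 3.56% of all promoters, and neither Fcer2a nor Cd72 held it in this window. The promoter of Urod held neither GATA pattern. A match says only that the letters were present.

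B cell genes made up the deepest fall. Of the 32 B cell genes on the array, 29 were downregulated, 1 was upregulated and 2, Cd37 and Cd180, were not called (-1.13 and -0.85; both were singled out after their values were seen). Their median difference was -3.998, against -0.02 for all genes. The mean level of these genes, relative to the control mean, ranged from -0.34 to 0.39 over the control arrays and from -4.54 to -2.89 over the 15% arrays. The pair that shared a session differed by a median of -3.21, and 20 of the 32 were still called lower with the session as a block. In whole blood a smaller number of B cells and less RNA per B cell cannot be told apart.

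Cd79b, which with Cd79a forms the signalling part of the B cell receptor, was measured by a probe at chr11:106172780-106172839 (mm9). Its level was 10.09, 10.63 and 10.93 on the lowest, median and highest control array and 4.72, 5.42 and 7.45 at 15%, a difference of -4.77 (SE 0.41, limma adjusted p = 1.75e-06). Every 15% array lay below every control, and replicate 3 was the highest of them. Cd79a ran from 8.49 through a median of 9.08 to 9.89 in controls and from 3.14 through 4.39 to 6.30 at 15% (-4.37, SE 0.48), and its other probe differed by -5.36. Ms4a1, the gene of the surface protein CD20, stood at 8.55, 8.90 and 9.15 in controls against 3.04, 3.92 and 5.83 at 15% (-4.54, SE 0.43). Blnk, the adaptor that links the receptor to its kinases, was at 8.40, 8.74 and 9.29 in controls and at 3.93, 4.15 and 5.63 after the mixed field (-4.27, SE 0.32). The groups were separated by more than 2 log2 units in each of these genes. With the session as a block Cd79b (adjusted p = 0.0164) and Blnk (0.0213) were called, and Cd79a (0.0236) and Ms4a1 (0.0821) were not.

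Receptors of mature B cells were among the genes with the smallest p-values. Fcer2a, the low-affinity IgE receptor of mature B cells, differed by -6.98 (SE 0.36, adjusted p = 4.29e-08), with levels of 6.02, 6.50 and 7.12 in controls against -1.71, -0.38 and 0.51 at 15%, where its probe was well above background on 1 of 6 arrays, so most of the values at 15% lay at background. Tnfrsf13c, the receptor for the survival factor BAFF, was at 6.47, 6.88 and 7.04 in controls and at 0.59, 1.43 and 2.74 at 15% (-5.32, SE 0.32), and was well above background on 4 of the 6 15% arrays. Cd72, an inhibitory co-receptor, fell from 6.57, 6.77 and 7.27 to 2.93, 3.27 and 3.44, a difference of -3.61 (SE 0.19, adjusted p = 5.5e-08). The 15% arrays lay close together in Cd72, with an SD of 0.18. Fcrl1 was well above background on all 6 control arrays (3.38, 3.62 and 4.08) and on no 15% array, which put it at least 11.3-fold lower (adjusted p = 6.67e-08). Fcmr, the receptor for IgM, differed by -4.54 (SE 0.31), Ly6d by -4.57 (SE 0.39) and the chemokine receptor Ccr6 by -4.48 (SE 0.35). Il4i1, an enzyme made by B cells and myeloid cells, differed by -4.47 (SE 0.22) and had the smallest p of the genes lower at 15% (adjusted p = 4.29e-08).

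Fcrl5, an Fc receptor-like gene of a B cell subset, was the only listed B cell gene that was higher, at 6.13, 6.33 and 6.71 in controls and 6.71, 7.73 and 7.88 at 15% (1.10, SE 0.25, adjusted p = 0.00232). Its replicate 3 arrays were both at 6.71, and its call was lost under the session block (adjusted p = 0.755) and when any of 9 single arrays was left out, with unadjusted p-values up to 0.00191. Transcripts of antibody chains fell as well. The probe annotated to the immunoglobulin delta chain lay at 7.51, 8.07 and 9.05 in controls and at 2.07, 3.23 and 3.90 at 15% (-5.17, SE 0.38, adjusted p = 5.29e-07). Of the immunoglobulin lambda probes, that of the J-C lambda 3 cluster differed by -4.47 (SE 0.39) and another lambda chain probe by -4.37 (SE 0.38).

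MHC class II genes, whose products present peptides to helper T cells and which B cells carry at high level, were all lower. All 11 were called, with a median of -3.17 and a range from -4.95 to -1.28. Their mean relative level was -0.38 to 0.34 over the controls and -3.69 to -2.29 over the 15% arrays. H2-Ob, which regulates peptide loading in B cells, stood at 6.99, 7.58 and 7.97 in controls and 2.10, 3.25 and 3.72 at 15% (-4.40, SE 0.29). H2-Oa, its partner, was at 6.89, 7.57 and 7.88 against 2.59, 3.62 and 4.32 (-3.95, SE 0.29). Both were called with the session as a block as well, with adjusted p-values of 0.00063 and 0.000484. H2-DMb2 fell by 4.95 (SE 0.43) and H2-Eb2 by 3.71 (SE 0.31), each well above background on 2 of 6 arrays at 15%. Between the pair of arrays that shared a session the median of the list was -2.18, and 4 of the 11 genes were called under the session block.

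Plasma cell genes moved in both directions, with 2 of 9 called higher and 2 lower, beside 12.6% and 16.6% of all genes. Of 9 tested, Mzb1 and Irf4 fell, by 3.13 (SE 0.33) and 2.49 (SE 0.37, well above background on 5 of 6 arrays at 15%), and Ell2 and Xbp1 rose, by 1.502 (SE 0.28) and 1.29 (SE 0.25). Irf4 and Mzb1 are also used by activated B cells, and Xbp1, the factor of the unfolded protein response, is made by many secretory cells. None of the 4 was called with the session as a block (adjusted p from 0.0684 to 0.184).

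T cell genes were lower in 13 of 33 tested and higher in none, beside 16.6% and 12.6% of all genes. Their median was -0.94, and 7 were called lower with the session as a block. Cd2, an adhesion receptor of lymphocytes that is not limited to T cells, was at 8.004, 8.46 and 8.76 in controls and at 5.93, 6.64 and 6.80 at 15% (-1.88, SE 0.22, adjusted p = 2.33e-05). Ccr7, which guides naive T cells and B cells into lymph nodes, was at 8.40, 8.71 and 9.24 against 5.07, 6.32 and 7.19 (-2.46, SE 0.34). Il7r, the receptor of the lymphocyte survival factor IL-7, stood at 4.96, 5.53 and 5.95 in controls and 3.12, 3.48 and 4.30 at 15% (-1.82, SE 0.28). The groups did not overlap in any of the 3, and replicate 3 was the lowest 15% array for Ccr7 and Il7r. Bcl11b, a factor that keeps T cell identity, differed by -1.76 (SE 0.28). Cd4 was not called at 1.19 (adjusted p = 0.00558), and its value for the pair that shared a session was -0.25. In all, 20 T cell genes were not called, Cd4 among them.

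NK cell genes gave 1 call among 21 tested, with a median of 0.20 (below 0 with arrays centred on the spike-in probes or with the deposited table). That gene, Cd244, was at 4.36, 4.87 and 5.38 in controls and at 4.70, 7.50 and 7.71 at 15% (2.00, SE 0.46, adjusted p = 0.00262). Its 15% replicate 3 lay within the control range at 4.70, the call was lost on leaving out any of 9 single arrays (unadjusted p up to 0.0022), without 15% replicate 3 the list held 3 called genes, and with the session as a block it held none. Monocyte genes likewise gave 1 call of 21, whereas 29.2% of all genes were called. Itgam, the integrin of myeloid cells, rose by 2.86 (SE 0.51), but its 15% replicate 3 stood at 8.88 against 8.84 for control replicate 3, its other probes differed by 0.19 to 0.68, and it was not called with the session as a block.

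**Figure D2:**
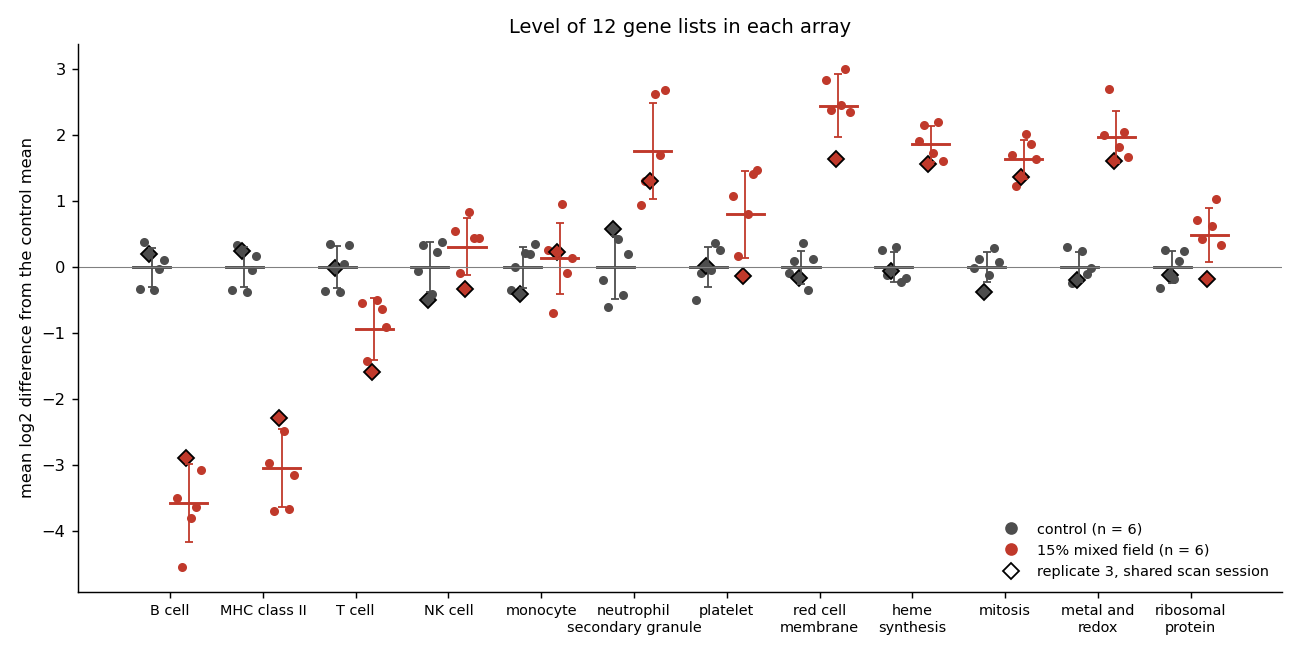
Mean level of 12 gene lists on each array, as the mean over tested members of the log2 level minus the control mean, for 6 control and 6 mixed field arrays, with replicate 3 of each group as a diamond. B cell genes lay between -4.54 and -2.89 at 15% and red cell membrane genes between 1.64 and 3.01, while the replicate 3 array of the 15% group lay at or near the control range for platelet and ribosomal protein genes.

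Genes of red cell formation rose together. Of 20 genes of the red cell membrane and its surface antigens 19 were upregulated and none was downregulated, with a median of 2.27, and of 15 heme synthesis and iron uptake genes 12 were upregulated and none was downregulated, with a median of 1.76. The mean relative level of the membrane genes was -0.35 to 0.37 in controls and 1.64 to 3.01 at 15%, and that of the heme genes was -0.23 to 0.31 against 1.56 to 2.20. Between the arrays that shared a session the medians were 1.99 and 1.51, and 6 and 3 genes were called under the session block. Centring on the spike-in probes left 10 of 18 membrane genes and 3 of 14 heme genes higher and none lower. The medians were then 1.17 and 0.60. Rhd, the Rhesus blood group antigen whose promoter is printed above, was at 4.94, 5.57 and 6.07 in controls and 8.44, 9.25 and 9.73 at 15% (3.64, SE 0.26, adjusted p = 4.01e-07). Rhag, its partner in the membrane, was at 1.89, 2.15 and 2.92 against 4.98, 6.05 and 6.30 (3.63, SE 0.27). Kel, another blood group antigen, was at 5.02, 5.40 and 5.57 against 7.48, 7.85 and 8.27 (2.51, SE 0.20). Replicate 3 was the lowest 15% array for each of these 3 and still lay above every control. Add2, a subunit of the membrane skeleton, differed by 3.83 (SE 0.32).

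Among the enzymes of heme synthesis, Urod was at 7.68, 7.998 and 8.53 in controls and 11.03, 11.71 and 12.30 at 15% (3.65, SE 0.24, adjusted p = 2.62e-07). Cpox, which takes over the product of Urod, was at 2.67, 3.51 and 4.24 against 6.05, 7.04 and 8.11 (3.53, SE 0.34). Both enzymes rose without overlap between the groups, and both were called with the session as a block (adjusted p of 0.00657 and 0.0181). Alas2, the first and rate-limiting enzyme in red cells, was not called at 0.94 (adjusted p = 0.0333). Abcb10, a mitochondrial transporter, rose by 1.76 (SE 0.26) but was not called under the session block.

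Ahsp, the chaperone that binds free alpha globin, was one of the largest rises, from 8.14, 8.86 and 9.56 in controls to 13.11, 13.93 and 14.31 at 15% (4.93, SE 0.28, adjusted p = 9.37e-08), and remained called under the session block (adjusted p = 0.00378). The adult globin genes moved less: Hba-a1 and Hbb-b1 were not called at 0.67 and 0.92, in RNA from which globin transcripts had been depleted. Of the globin list, which holds Ahsp, 5 of 11 genes were upregulated, beside 12.6% of all genes. The median of the list was 1.28, and the pair that shared a session gave -0.14. With the session as a block 3 of the 11 were called, Ahsp, Hbb-bh1 and Hbb-y. The median fell to 0.06 with arrays centred on the spike-in probes, where 3 of 9 were higher and 1 lower. Embryonic globins were among the called genes. Hbb-bh1 was at -0.61, -0.36 and 0.08 in controls, well above background on 4 of 6, and at 3.18, 4.02 and 4.65 at 15% (4.34, SE 0.24, adjusted p = 8.54e-08). Hbb-y was at 3.20, 3.32 and 3.55 against 5.49, 6.93 and 7.46 (3.46, SE 0.30). Hba-x was well above background on no control and on 1 of 6 mixed field arrays, and no size is given for it. Globin genes are near-identical copies of each other, so a probe may read more than 1 of them.

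Erythroid transcription factors and reticulocyte genes were split by member. Klf1, the master factor of red cell genes, was at 0.23, 0.51 and 0.77 in controls and 2.42, 3.17 and 3.64 at 15% (2.61, SE 0.24, adjusted p = 2.68e-06). E2f2, which drives the last divisions of red cell precursors, was at 9.84, 10.18 and 10.61 against 12.09, 12.89 and 13.85 (2.75, SE 0.28), and Zfpm1, the partner of GATA1, rose by 2.50 (SE 0.24). Ldb1, the bridging protein of the same complex, fell by 1.85 (SE 0.23), from 4.70, 4.99 and 5.48 to 2.78, 3.12 and 3.82. In all, 5 of 12 of these factors were higher and 1 was lower, beside 12.6% and 16.6% of all genes. With the session as a block Zfpm1 (adjusted p = 0.0115) and Ldb1 (0.0187) were called. Of 17 reticulocyte genes 10 were upregulated and none was downregulated, with a median of 1.51, and with the session as a block only Trim10 was called (adjusted p = 0.00886) and the median was 0.89. Arrays centred on the spike-in probes gave 3 of 14 higher and 1 lower, with a median of 0.26. Trim10 rose by 3.13 (SE 0.25), Trim58, a ubiquitin ligase of maturing red cells, by 2.91 (SE 0.33), Rnf123 by 2.65 (SE 0.22) and Fbxo30 by 2.37 (SE 0.34). Bcl2l1, the gene of the survival protein BCL-XL that red cell precursors depend on, rose by 2.85 (SE 0.38), and Bnip3l, which clears mitochondria from reticulocytes, by 1.51 (SE 0.30). Bcl2l1 was the highest of 12 BCL2 family genes, of which 2 were higher and none lower, beside 12.6% and 16.6% of all genes. The median of that family was 0.07, and none of its genes was called with the session as a block. Without 15% replicate 3 the counts were 7 factors and 11 reticulocyte genes higher.

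**Figure D3:**
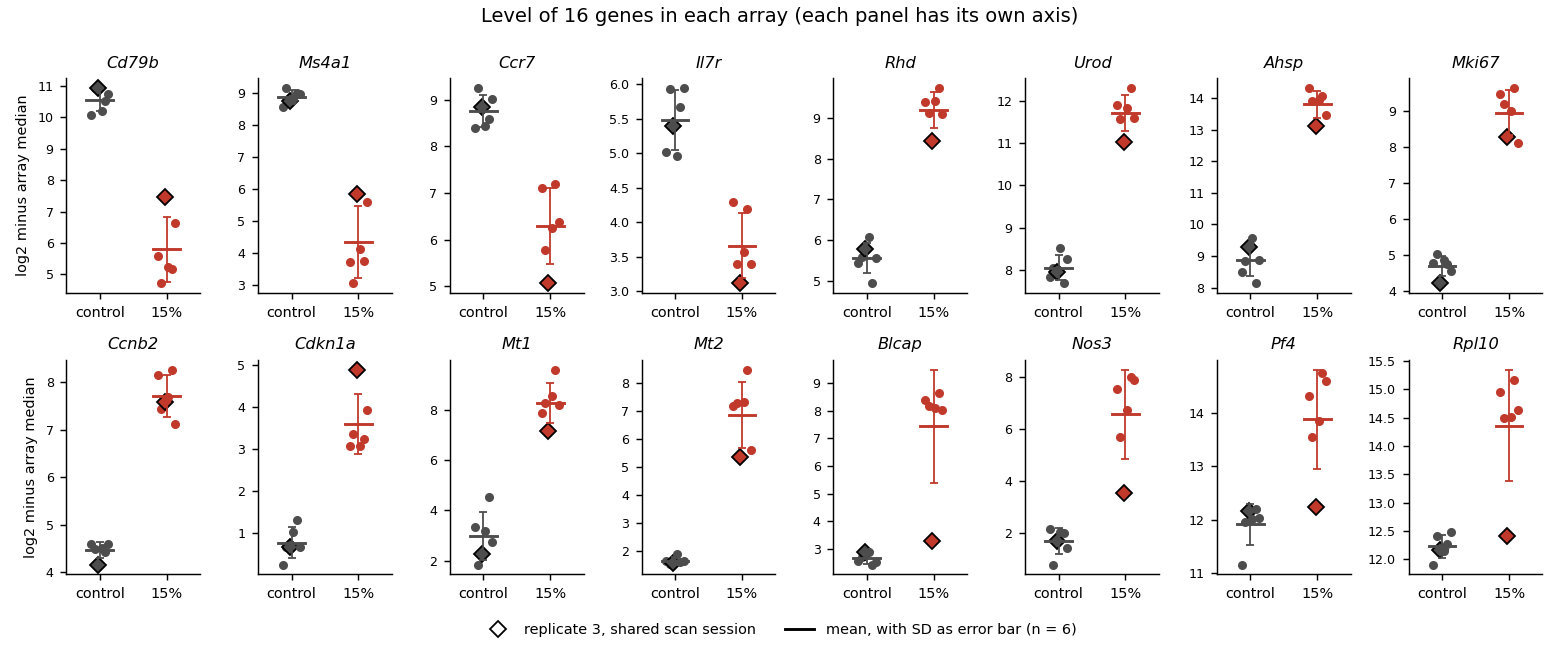
Log2 level (intensity minus array median) of 16 genes on each of the 6 control and 6 mixed field arrays, with the mean of each group and replicate 3 as a diamond. The groups were apart in Cd79b, Rhd, Mki67 and Mt1, whereas replicate 3 of the 15% group lay close to the controls in Blcap, Pf4 and Rpl10.

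Mitosis genes rose as a group. Of 41 genes 35 were tested, 24 were upregulated and none was downregulated, with a median of 1.66, and the pair that shared a session gave a median of 1.71. With arrays centred on the spike-in probes 7 of 35 were higher and 4 lower, and the median was 0.38. The mean relative level ran from -0.37 to 0.28 over the controls and from 1.23 to 2.02 at 15%, with replicate 3 at 1.36. Mki67, a protein of dividing cells, was at 4.21, 4.75 and 5.01 in controls and 8.12, 9.11 and 9.65 at 15% (4.27, SE 0.29, adjusted p = 2.74e-07), and its other probe differed by 4.42. Ccnb2, a cyclin of entry into mitosis, was at 4.16, 4.504 and 4.60 against 7.12, 7.64 and 8.27 (3.24, SE 0.23). Ccna2, a cyclin of S phase and G2, was at 4.60, 4.98 and 5.18 against 7.04, 7.99 and 8.87 (3.17, SE 0.28). The groups lay far apart in all 3, and the controls spread less than the mixed field arrays. Foxm1, the factor that drives mitotic genes, was well above background on 3 of 6 controls and all 15% arrays and differed by 3.68 (SE 0.25), and Top2a, the topoisomerase of dividing cells, by 2.60 (SE 0.23). Ube2c, the ubiquitin-conjugating enzyme of the anaphase promoting complex, rose by 2.14 (SE 0.24) and Fzr1, an activator of that complex, by 2.79 (SE 0.27). With the session as a block 6 of the 35 were called, among them Mki67 (adjusted p = 0.0042), Foxm1 (0.00473) and Ccnb2 (0.00393).

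DNA replication genes were mixed, 5 of 33 higher and 7 lower beside 12.6% and 16.6% of all genes, with a median of -0.34 that turned positive with arrays scaled on the 75th percentile or on the median of detected probes. Uhrf1, which copies DNA methylation, rose from 2.55, 2.79 and 3.09 to 5.52, 6.01 and 7.02 (3.40, SE 0.27, adjusted p = 9.1e-07). Rrm2, the subunit that supplies deoxynucleotides, was at 3.76, 4.37 and 4.59 against 6.43, 7.72 and 8.31 (3.25, SE 0.30). Pold1, the catalytic subunit of a replicative polymerase, went the other way, from 5.33, 5.93 and 6.34 to 3.24, 3.83 and 4.20 (-2.09, SE 0.25). Cdt1, which licenses origins, also fell, by 2.17 (SE 0.27). With the session as a block Uhrf1, Rrm2 and Pold1 were called (adjusted p from 0.00732 to 0.0154) and Cdt1 was not (0.0357). Of 37 histone genes 13 were upregulated and none was downregulated, beside 12.6% and 16.6% of all genes. Their median of 0.85 turned negative with arrays centred on the spike-in probes, and 2 were lower without 15% replicate 3. The pair that shared a session gave a median of 0.34, and with the session as a block only Hist1h3g was called and the median was 0.17. Hist1h3g was detected on no control and on 5 of 6 mixed field arrays, at least 5.54-fold higher, Hist2h2bb rose by 2.39 (SE 0.27), Hist1h3a, detected on 2 of 6 controls, by 2.05 (SE 0.22) and Hist1h3i by 1.85 (SE 0.23), although histone genes of a cluster are near-identical and their probes may not separate them.

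The p53 pathway stops damaged cells from dividing or removes them. Of 25 target genes 8 were upregulated and 2 were downregulated, beside 12.6% and 16.6% of all genes. Their median of 0.60 turned negative with arrays centred on the spike-in probes, and with the session as a block Cdkn1a, Psrc1 and Ddb2 were called. Cdkn1a, the inhibitor p21 that halts the cell cycle, was at 0.26, 0.68 and 1.32 in controls and 3.07, 3.29 and 4.88 at 15% (2.82, SE 0.32, adjusted p = 1.64e-05), its other probe differed by 3.86, and it was called with the session as a block (adjusted p = 0.00471). Its highest value was that of replicate 3, whose session partner among the controls stood at 0.67. Ak1 rose by 2.81 (SE 0.35) and Psrc1 by 2.33 (SE 0.22), well above background on 4 and 2 of the 6 controls, while Gtse1, which restrains p53 in G2, was well above background on no control and on 2 mixed field arrays. Ddb2, a sensor of damaged DNA, fell from 2.45, 3.23 and 3.74 to 0.94, 1.35 and 1.69 (-1.86, SE 0.24, adjusted p = 4.42e-05). Among double-strand break repair genes, 3 of 24 rose and 4 fell, shares close to the 12.6% and 16.6% of all genes, and none was called with the session as a block. Atm, the kinase that signals breaks, fell from 1.91, 2.38 and 2.82 to -0.49, -0.20 and 0.42 (-2.45, SE 0.24, well above background on 1 of 6 arrays at 15%), and its other probe differed by -0.93. Fanca fell by 1.76 (SE 0.29) and Lig4, the ligase of end joining, by 1.36 (SE 0.27, well above background on 3 of 6 arrays at 15%). Fancd2 rose by 2.58 (SE 0.44) but was well above background on 1 of 6 controls, and between the arrays that shared a session the difference was -0.15.

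Metal-binding and redox genes rose as a group. Of 26 tested 16 were upregulated and none was downregulated, with a median of 1.78, the median was 1.496 between the arrays that shared a session, and 4 were called with the session as a block. Arrays centred on the spike-in probes gave 7 of 27 higher and none lower, with a median of 0.54. Mt1 and Mt2 encode metallothioneins, small proteins that bind zinc and copper and rise under metal, steroid and oxidative stress, and lie side by side on chromosome 8. Mt1 was at 1.84, 2.96 and 4.53 in controls and 7.17, 8.23 and 9.59 at 15% (5.29, SE 0.46, adjusted p = 1.75e-06), although its other probe differed by only 0.48. Mt2 was at 1.52, 1.62 and 1.90 against 5.34, 7.24 and 8.48 (5.23, SE 0.44, adjusted p = 1.5e-06). Gstt1, a glutathione transferase, varied among controls, at 2.70, 3.83 and 6.50, and lay at 8.62, 9.03 and 9.99 at 15% (4.89, SE 0.56). Under the session block all 3 were called, with adjusted p-values of 0.00142, 0.00402 and 0.00366. Nqo1, a quinone reductase, rose by 3.11 (SE 0.26) and Gstm5 by 2.87 (SE 0.27). The largest rise by the naming rule was that of Apol10a, an apolipoprotein L gene measured at chr15:77485080-77485139 (mm9), from 3.28, 3.52 and 4.29 to 8.27, 9.13 and 9.51 (5.32, SE 0.27, adjusted p = 4.29e-08, and 0.000484 with the session as a block).

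A second set of large rises depended on the array. Nos3, the endothelial nitric oxide synthase, was at 0.80, 1.86 and 2.18 in controls and 3.54, 7.12 and 7.99 at 15% (4.86, SE 0.64, adjusted p = 5.09e-05). Blcap was at 2.43, 2.62 and 2.89 against 3.27, 8.15 and 8.66 (4.78, SE 0.73, adjusted p = 0.000153). Replicate 3 was the lowest 15% array in both, within 0.38 of control replicate 3 for Blcap, while the other 5 lay higher. Erich5 (4.71), the taste receptor gene Tas2r109 (4.68), Srpx2 (4.498) and TC1725173 (4.498), a transcript annotated as similar to part of Argonaute 4, also had replicate 3 as the lowest 15% array. With the session as a block none of these 6 was called (adjusted p from 0.193 to 0.579). The scan session and the exposure cannot be told apart for the other 5 arrays of each group.

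Of 16 genes whose products fill the secondary granules of neutrophils 3 were upregulated, beside 12.6% of all genes, and none was downregulated, with a median of 1.48. Ngp was at -2.51, -1.36 and 0.34 in controls and 2.67, 4.41 and 5.80 at 15% (5.49, SE 0.67, adjusted p = 2.97e-05). Ltf, the iron binder lactoferrin, was at -2.02, -0.63 and 0.70 against 2.64, 4.93 and 5.99 (5.23, SE 0.62). Both were well above background on 1 control and on all 15% arrays. Camp, a bactericidal peptide, was at 2.62, 2.92 and 3.48 against 4.88, 6.67 and 7.89 (3.56, SE 0.49), with 2.48 by its other probe. None of the 3 was called with the session as a block (adjusted p from 0.221 to 0.496), where the median of the list was -0.02. Elane, the elastase of primary granules, rose by 3.57 (SE 0.56), with replicate 3 at 5.82 against 5.57 for its session partner. Of 17 genes of mature neutrophils 1 was higher and 1 lower, beside 12.6% and 16.6% of all genes. Mxd1 rose by 2.02 (SE 0.32) and Csf3r, the receptor for the growth factor G-CSF, fell by 1.01 (SE 0.21). Of 12 eosinophil and basophil genes 1 was higher and 1 lower, beside the same shares of all genes. Il5ra fell by 2.14 (SE 0.35, well above background on 5 of 6 arrays at 15%) and Prss34, a basophil protease, rose by 2.59 (SE 0.48, well above background on 5 of 6 controls). Of 15 progenitor genes 1 was higher and 2 were lower, again beside 12.6% and 16.6% of all genes. Kit rose by 1.53 (SE 0.31), well above background on 3 controls and 5 mixed field arrays, while Sox4, detected on 1 array at 15%, and Ly6a fell by 2.44 (SE 0.24) and 1.68 (SE 0.38). Of these, only Sox4 was called with the session as a block (adjusted p = 0.00148), its other probe differed by -0.53, and the call of Ly6a was lost on leaving out any of 7 single arrays (unadjusted p up to 0.00183).

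Platelet genes were higher in 7 of 26 and lower in none, beside 12.6% and 16.6% of all genes. Their median of 0.96 turned negative with arrays centred on the spike-in probes. Pf4, a chemokine of platelet granules, was at 11.16, 12.02 and 12.20 in controls and 12.23, 14.09 and 14.75 at 15% (1.97, SE 0.38, adjusted p = 0.000842). Its replicate 3 arrays stood at 12.16 and 12.23. Gp1bb, a subunit of the receptor for von Willebrand factor, rose by 1.79 (SE 0.35), Thbs1 by 1.45 (SE 0.27) and F2rl2 by 1.45 (SE 0.29). The pair that shared a session gave a median of -0.21 for the list, none was called with the session as a block, and 10 were higher without 15% replicate 3.

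**Figure D4:**
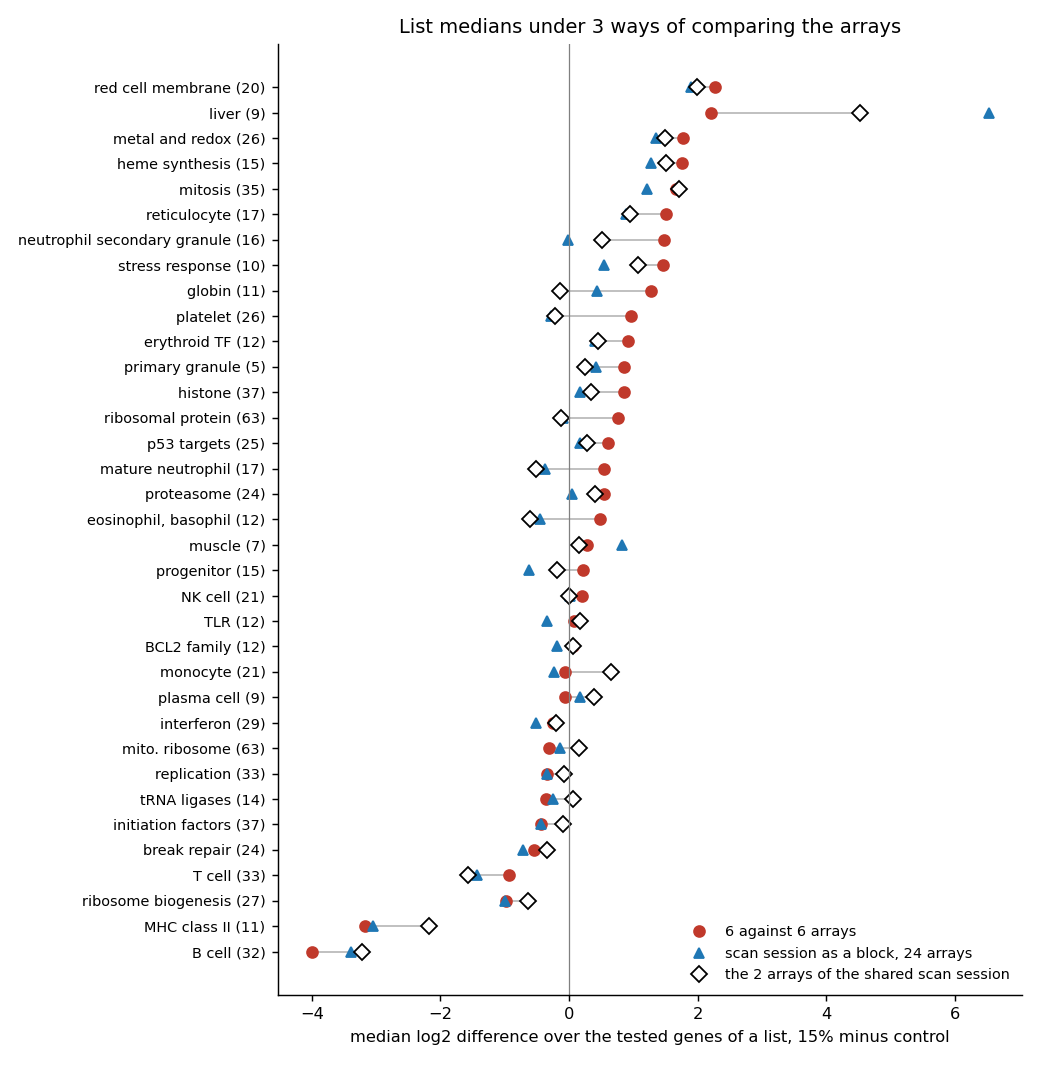
Median log2 difference of each of the 35 gene lists over all 12 arrays, in the model of 24 arrays with the scan session as a block, and for the pair of arrays that shared a session. B cell, MHC class II, red cell membrane, mitosis and redox lists kept their side in all of them, whereas platelet, globin and ribosomal protein lists lay at -0.21, -0.14 and -0.12 for the shared pair.

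Ribosomal protein genes had no single direction. Of 63 tested, 12 were upregulated and 6 were downregulated with each array centred on its median, beside 12.6% and 16.6% of all genes. The median of the list was 0.76. With quantile normalization 2 of 51 were higher and 36 lower (median -1.29), and with the deposited values 3 of 51 were higher and 38 lower (-1.44). Arrays centred on the spike-in probes gave none of 74 higher and 25 lower (-0.815), against 12 of 64 higher and 2 lower with arrays scaled on the 75th percentile (0.96). The genes tested also differed between the scalings, and the part of this in the counts was not tested. The bright end of the array lay higher at 15%, where the brightest 1% of probes began at 11.8 ± 0.44 (SD, n = 6) above the median against 10.9 ± 0.17 (SD, n = 6; exact two-sided permutation p = 0.00649), and its part in these counts was not tested. Without 15% replicate 3, 26 were higher and 6 lower, and the pair that shared a session gave a median of -0.12, and none was called with the session as a block. Rpl10 was at 11.91, 12.21 and 12.49 in controls and 12.42, 14.57 and 15.16 at 15% (2.13, SE 0.39, adjusted p = 0.000496), with replicate 3 at 12.42. Rpl18 was at 10.62, 11.00 and 11.37 against 8.72, 9.20 and 10.02 (-1.73, SE 0.25, adjusted p = 9.15e-05). Rps18 was at 10.26, 10.54 and 10.99 against 8.63, 9.26 and 9.71 (-1.36, SE 0.23). The groups overlapped in Rpl10 and were apart in Rpl18 and Rps18. Rpl41 rose by 1.57 (SE 0.30), and Rps19 and Rpl26 were not called at -0.68 and -0.57. The probes of Rpl18, Rps18 and Rpl10 were placed by the array's annotation on chromosomes 6, 16 and 12 (mm9), and since ribosomal protein genes have many near-identical copies in the genome it is uncertain which copy a probe reads.

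**Figure D5:**
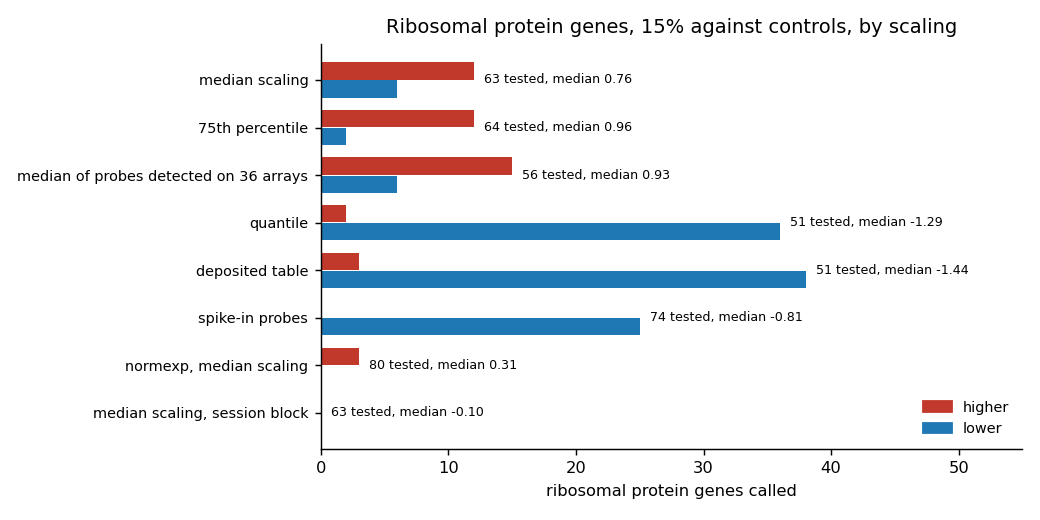
Number of ribosomal protein genes called higher (red bars) and lower (blue bars) at 15% under each way of scaling the arrays. The count of higher genes went from 12 with arrays centred on the median to 2 with quantile normalization, and that of lower genes from 6 to 36.

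Genes that build ribosomes fell: 13 of 27 were downregulated and none was upregulated, with a median of -0.97 that stayed below 0 under each scaling tried, and none was called with the session as a block. Nop58 and Nop56, core proteins of the box C/D particles that guide rRNA methylation, fell by 1.49 (SE 0.22) and 1.19 (SE 0.20). Noc2l was at 4.42, 4.85 and 5.20 in controls and 2.77, 3.03 and 4.05 at 15% (-1.65, SE 0.25, adjusted p = 0.000145), and Wdr75 fell by 1.51 (SE 0.25). Translation factors were mixed, with 5 of 37 higher and 8 lower beside 12.6% and 16.6% of all genes. Eif2ak1, the heme-regulated kinase that slows translation in red cells short of heme, was at 3.47, 3.73 and 3.95 in controls and 5.83, 6.90 and 7.32 at 15% (3.09, SE 0.25, adjusted p = 9.63e-07). Eif2ak4, the kinase that senses lack of amino acids, was at 3.72, 4.25 and 4.64 against 1.95, 2.34 and 2.96 (-1.80, SE 0.25, adjusted p = 8.04e-05). Neither kinase overlapped between the groups, and with the session as a block Eif2ak1 was called (adjusted p = 0.0207) and Eif2ak4 was not (0.124). Eif5a2 rose by 2.20 (SE 0.28) and Eif1ad fell by 1.55 (SE 0.21). Of 10 genes listed for the integrated stress response, the program that these kinases start, 5 rose and 2 fell, beside 12.6% and 16.6% of all genes. This list overlaps with that of the translation factors: the lowest member of both was Eif2ak4, at -1.80. The median of the stress response list, 1.46, became -0.57 with arrays centred on the spike-in probes, where 3 of 12 rose and 4 fell. Atf5 was at 5.63, 5.92 and 7.20 against 9.19, 10.56 and 12.07 (4.41, SE 0.43), and Asns, the asparagine synthetase, was at 2.39, 2.93 and 4.03 against 6.29, 7.25 and 8.39 (4.20, SE 0.37). Both were called with the session as a block (adjusted p of 0.00451 and 0.00657). Of 14 tRNA ligases tested 1 was higher and 1 lower, beside 12.6% and 16.6% of all genes. Nars rose by 1.85 (SE 0.19) and Vars fell by 1.65 (SE 0.24), and with the session as a block only Vars was called (adjusted p = 0.0189).

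Of 29 interferon-response genes 4 rose and 3 fell, close to or below the 12.6% and 16.6% of all genes, with a median of -0.25, and none was called with the session as a block. Oas3, a sensor of double-stranded RNA, was at 4.10, 4.67 and 5.12 in controls and 6.73, 7.28 and 7.71 at 15% (2.61, SE 0.23, adjusted p = 1.87e-06). Isg15 rose by 2.06 (SE 0.30) and Rsad2 by 1.85 (SE 0.24), and Ifit2 fell by 1.95 (SE 0.27), from 2.65, 3.14 and 3.297 to 0.31, 1.14 and 1.84, with 4 of 6 arrays well above background at 15%. Among 12 genes of Toll-like receptors and their signalling 1 was higher and 2 were lower, beside 12.6% and 16.6% of all genes. Tlr1 fell from 4.25, 4.78 and 5.06 to 1.47, 2.28 and 3.31 (-2.47, SE 0.30), and Unc93b1, the chaperone of nucleic acid sensing receptors, fell by 1.48 (SE 0.28). Tlr7 rose by 3.79 (SE 0.59), although its other probe differed by -0.92. Of these 3 only Tlr1 was called with the session as a block (adjusted p = 0.00886). Without 15% replicate 3 the interferon counts were 6 higher and 5 lower. Of the other genes fixed for naming, Chst3, a chondroitin sulfotransferase, was at 6.23, 6.78 and 7.35 in controls and -0.56, 0.19 and 2.36 at 15%, where it was well above background on 2 arrays (-6.28, SE 0.46, adjusted p = 5.82e-07). Crip2 rose by 3.71 (SE 0.31), Add3 fell by 1.36 (SE 0.27), and Myc fell by 1.24 (SE 0.29, adjusted p = 0.00298), a call lost on leaving out any of 10 single arrays (unadjusted p up to 0.00272) and with a value of 0.17 for the pair that shared a session.

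Markers of cells that blood should not hold were measured on the same arrays. Liver genes were detected: Alb, the gene of serum albumin, was at -2.16, 6.37 and 11.32 in controls and 6.37, 7.95 and 15.13 at 15%. The difference of 3.78 (SE 2.10) was not called (adjusted p = 0.151), and arrays of both groups lay high. Ahsg, Apoa2 and Ttr, other liver transcripts, gave 3.34, 1.91 and 2.83 and were not called either. The mean relative level of the 9 liver genes ran from -4.89 to 4.48 over the controls and from -0.35 to 7.50 at 15%, and none was called. In the pair that shared a session it was 1.11 on control replicate 3 and 5.54 on 15% replicate 3. The median of the list was 2.21 over all 12 arrays, 4.53 for that pair and 6.53 with the session as a block over 24 arrays. Of 18 muscle genes 9 were below background on all 12 arrays and none of the 7 tested was called, with a range of -0.34 to 0.33 in controls and 0.07 to 0.93 at 15%. The part of liver and muscle RNA in the other results, those of the shared pair and the session block included, was not tested.

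The 15% group was also set against the exposures most like it. Against the x-ray group of the same total dose 623 genes (4.13%) were called, 252 higher and 371 lower at 15%. Blcap was 4.52 higher than after x-rays (adjusted p = 0.0154) and Cd244 1.96 higher (adjusted p = 0.022), both with replicate 3 close to the controls. Of the members of the 35 lists 10 were called against x-rays (adjusted p from 0.0154 to 0.0232), and apart from Cd244 they are named here after their values were seen. By list they were 5 of 37 histone genes, 1 higher and 1 lower of 21 NK cell genes and 1 of 21 monocyte genes. The others were 1 of 12 erythroid factors and 1 of 26 metal and redox genes. The remaining lists held none, beside 4.13% of all genes. Lower at 15% than after x-rays were the histone genes Hist1h3f (-2.40), Hist1h3c (-2.13), Hist1h2bb (-2.04), Hist1h2aa (-1.86) and Hist1h2bm (-1.20), 5 of 37 and the most of any list, the NK cell receptor gene Klre1 (-1.13) and Cd36, a fatty acid receptor (-1.05). None of these 7 was called against controls at 15%. Higher were E2f4 (1.98), a cell cycle factor, and Prdx6 (1.5), a peroxidase. In the B cell list no gene was called against x-rays, and its median difference and that of all genes were both 0.12. Side by side, the difference from the shared controls was -4.77 for Cd79b at 15% and -4.86 after x-rays, 3.64 and 3.40 for Rhd, 4.27 and 3.64 for Mki67, and 2.82 and 2.25 for Cdkn1a. Of the x-ray arrays 5 shared their session with 5 controls and with no 15% array, 1 shared that of control and 15% replicate 3, and with the session as a block over 24 arrays no gene was called against x-rays. Without single arrays the count ran from 314 (without 15% replicate 4) to 1370 (without 15% replicate 3). Against the 5% mixed field, whose arrays were scanned in the same sessions as those of the 15% field, limma called no gene (0%), with 323 of the 15077 at an unadjusted p under 0.05, and the random variance test of the methods called none. A count of 0 with 6 mice per group does not show that the mixed fields act alike.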

How the data were processed

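RNA of whole blood was hybridised to 1-colour Agilent mouse arrays, 1 mouse per array, after globin transcripts had been depleted. The authors deposited the scanner output of Agilent Feature Extraction 12.0.2 (the version in the submitters' processing notes), whose processed signal is a background-corrected intensity, and a table of normalized log2 expression values, used here only as an alternative. Spots of a probe were averaged, log2 intensities were centred on the median of each array, and control spots were left out. A probe was kept if over 75% of the 36 arrays measured it as uniform and significantly above background, a looser flag than well above background. At least 20% of the arrays also had to deviate from its median by 1.5-fold or more, and the brightest probe stood for a gene. The 6 mixed field and 6 control arrays were compared with limma 3.58.1 in R 4.3.3, and the plots were made with matplotlib 3.10.9, numpy 2.4.6 and pandas 2.3.3 in Python 3.11.15. Calls needed a p below 0.001 and an adjusted p (Benjamini-Hochberg) below 0.05. The fit was tested on simulated data.

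Groups came from the array titles, and the number of table columns with no sample was 0. Slides and scan sessions came from the file headers. The members, the 35 gene lists, the genes to be named and the motifs were chosen with earlier results of these data known, so lists are given by counts and medians without a test. Genes were named if they were among the 12 largest rises or the 12 largest falls of called genes that were well above background on all 12 arrays and did not overlap, if they were among the 4 smallest p-values of a list or the leading member against its trend, or if the study had named them, and some of these are not reported here. Other genes, among them Cd4, Alas2, Hba-a1 and Hbb-b1, were chosen after their values were seen. Of 31093 genes on the array 11301 matched RefSeq. A probe not well above background on any array of a group gives only a bound, computed against the lowest signal well above background on each array. The number of arrays limits the precision of all values. Alternatives covered scaling, background correction, filters, probe choice, blocks for slide, session and replicate number, array weights, the deposited table, the test of the methods and single arrays left out.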

Additional observations from a re-analysis of the deposited data

Results flagged for a closer look

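In 360 groups of 6 arrays checked, 21 had a highest or lowest array whose gap to its neighbour exceeded 0.625 of the group's range, and chance alone gives about 1 in 20. In 10 cases this was the lowest 15% array, and all 10 were replicate 3: Blcap (a gap of 0.881 of the range), Rpl10 (0.759), Fbxo30 (0.683), Trim58 (0.68), TC1725173 (0.672), Eif2ak1 (0.65), Mxd1 (0.649), Elane (0.641), Srpx2 (0.637) and Eif5a2 (0.627). That array was the only one of its group on its slide and in its scan session, and the part of the session in these gaps was not tested. Replicate 3 was also the highest 15% array for Noc2l (0.641). Other mixed field arrays that stood high were replicate 6 for Ccr6 (0.784) and replicate 1 for Hba-x (0.722). Among the controls, replicate 3 stood low for Ell2 (0.723), Zfpm1 (0.632) and Tlr7 (0.631), replicate 1 for Pf4 (0.76) and Prss34 (0.641) and replicate 2 for Tas2r109 (0.665), while replicate 4 stood high for Rsad2 (0.747) and Mt2 (0.709).

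Genes that differed between the exposures of equal total dose were Blcap, by 4.52 (15% minus x-rays, limma adjusted p = 0.0154), and 10 members of the gene lists (limma adjusted p from 0.0154 to 0.0232): Cd244 (1.96), E2f4 (1.98) and Prdx6 (1.5) higher at 15%, and Hist1h3f (-2.40), Hist1h3c (-2.13), Hist1h2bb (-2.04), Hist1h2aa (-1.86), Hist1h2bm (-1.20), Klre1 (-1.13) and Cd36 (-1.05) lower. No gene was called against x-rays with the scan session as a block over 24 arrays.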

How the results depend on the processing

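The count of 4398 genes against controls was between 3099 and 5945 under 13 alternatives. It was 7319 with arrays centred on the spike-in probes, 788 with normexp background correction, 60 with the slide as a block, 152 and 671 with the scan session as a block over 12 and 24 arrays, and 7483 at an adjusted p below 0.05 alone. Without single arrays it was 3557 to 5043. The share downregulated, 56.8%, was 46.4% with the 75th percentile, 94.9% with spike-in centring, 29.6% with normexp, 69.8% with the deposited table and 72.9% under the session block of 24 arrays, and 52.6% to 59.5% without single arrays. These scalings also moved the median of all genes, to 0.30 (75th percentile), 0.23 (median of detected probes), -1.31 (spike-in), -0.18 (normexp), -0.33 (deposited table) and -0.13 (session block of 24 arrays). Against x-rays the 623 genes became 206 with normexp, 1549 with 1 model of 36 arrays, 1929 with array weights, 4 with the slide block, 5 and 0 with the session block over 12 and 24 arrays, 1510 at an adjusted p alone, and 314 to 1370 without single arrays. Against the 5% field the count was 0 under each alternative, single arrays left out included (0 to 0). Rpl26 turned to 0.78 with the 75th percentile. With the slide block, the session block of 12 arrays and the shared session alone, Fancd2 turned to -0.15 and Myc to 0.17. The causes were not tested. Same-numbered arrays were not paired (correlations of same-numbered deviations from -0.46 to 0.20), and with the replicate number as a block 3099 genes were called against controls (50.2% lower), 572 against x-rays and 0 against the 5% field. Of the 1070 called genes with another probe, 210 had one of the opposite sign.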

Other observations

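Probes that all 6 arrays of one group and no array of the other detected numbered 273 for the controls and 44 for the 15% mixed field. Those seen in controls and not at 15% included many probes for immunoglobulin variable regions, Pla2g2d, a secreted phospholipase that was at least 28.8-fold lower at 15%, Cd200, an inhibitory surface protein (at least 14.7-fold lower), and Klhl14 (at least 7.93-fold lower). Those seen at 15% and not in controls included Mmel1, a membrane peptidase, at least 46.3-fold and 41.2-fold higher by its 2 probes, Nrip3 (at least 21.4-fold), Gng13 (at least 19.7-fold), Kcnma1, a potassium channel (at least 10.6-fold), Tac2 (at least 10.5-fold), Epdr1 (at least 8.75-fold) and Foxo4 (at least 8.46-fold). Detection in this pattern was not particular to the 15% field: Mmel1, Nrip3, Gng13, Tac2 and Epdr1 were well above background on all 6 arrays after x-rays, the 5% and the 25% mixed field, Kcnma1 and Foxo4 on 4 to 6, and Pla2g2d and Klhl14 on none. Cd200 was so on 1, 0 and 3 arrays of these groups. After neutrons alone the pattern differed: Pla2g2d and Cd200 were well above background on 6 arrays, Klhl14 on 5, and Nrip3 and Gng13 on only 2. Pla2g2d and Klhl14 lay outside the genes tested, and the genes named here were chosen after their values were seen. Fewer probes in all were well above background at 15%.

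Subunits of the mitochondrial ribosome, which makes the proteins of the respiratory chain, were higher in 8 of 63 and lower in 3, beside 12.6% and 16.6% of all genes, with a median of -0.32. Mrps21 was at 6.92, 7.09 and 7.52 on the lowest, median and highest control array and at 8.59, 10.06 and 10.98 at 15% (2.88, SE 0.33, adjusted p = 1.75e-05). Mrpl32 rose by 2.00 (SE 0.20), Mrpl20 by 1.62 (SE 0.23) and Mrps14 by 1.71 (SE 0.23), although the other probe of Mrps14 differed by -0.19, and Mrps9 fell by 1.72 (SE 0.32). Proteasome subunits were higher in 6 of 24 and lower in 1, beside the same shares of all genes. Their median of 0.54 turned negative with quantile normalization, spike-in centring and the deposited table. Psmd4, the ubiquitin receptor of the regulatory particle, was at 10.13, 10.35 and 10.42 in controls and 11.06, 12.06 and 12.68 at 15% (1.75, SE 0.26, adjusted p = 0.000111). Psmd8 rose by 1.69 (SE 0.20), Psma5 by 1.65 (SE 0.28) and Psmd9 by 1.57 (SE 0.18), with 0.37 by the other probe of Psmd9. Psmb8, a subunit of the immunoproteasome, fell from 7.72, 8.04 and 8.23 to 6.09, 6.50 and 7.40 (-1.32, SE 0.27, adjusted p = 0.00117). With the session as a block, Mrpl32 was called (adjusted p = 0.0193) and no proteasome gene was.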
